A study of Mus musculus with 18 samples.

Results

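Hearts of 8-day-old mice (P8) kept in hypoxia were compared with hearts of 8-day-old mice kept in normoxia. The hypoxic group was the 5 samples whose labels give hypoxia, at 11% oxygen, and P8 (numbers 4 to 8), and the normoxic group the 4 samples whose labels give normoxia and P8 (numbers 13, 22, 23 and 24). Together they are 9 of the 18 samples of the series. The other 9 are 5 hypoxic and 4 normoxic hearts at P30. They were fitted together with the P8 hearts and share 1 estimate of the spread, which enters each SE and p-value at P8. An effect at P8 was also set against that at P30. The series title describes a perinatal, chronic exposure as a model of heart disease with low blood oxygen in children. Strain, genotype, sex, the start of the exposure, litter and processing batch were not given in the sources used here, nor whether a sample was 1 animal or which chambers were taken. The p-values below therefore measure the spread between samples within all 4 groups, part of which may be technical.

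Signals came from a whole-transcript microarray (Clariom S, mouse), with 1 log2 value per probe set and sample, as deposited. On this scale a difference of 1 is a doubling. The value table used here held 4704 probe sets, 21.2% of those the authors tested, and 2562 of them carry a gene name from the authors' gene lists. Because those lists hold probe sets that differed at an unadjusted p of at most 0.0499 at P8 or P30, named genes differ more often than the array as a whole, and each count below is read against the named genes. A gene may have a name only because it differed at P8. Where all differences of a list share a side below, this choice is part of the reason. A gene was called higher or lower where the adjusted p was at most 0.05 (limma, Benjamini-Hochberg over 22206 tests). Of the 2562 named genes, 687 (26.8%) were called higher in hypoxia and 248 (9.68%) lower, and the 2 groups did not overlap in 1115 (43.5%). Over all 4704 probe sets 714 (15.2%) were higher and 262 (5.57%) lower. With the P8 samples alone in the fit these 2 counts were 329 and 100. The median difference over the named genes was 0.65.

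The balance between rises and falls depends on how the arrays are scaled. Each array's median was taken over the 4704 probe sets held here, which are 21.2% of those the authors tested. It was 7.87 to 8.07 in the 5 hypoxic samples. For the 4 normoxic ones it was 7.49 to 7.69, so these medians did not overlap. How the probe sets were chosen was not given, so the shift need not hold for overall signal. Centring and quantile normalization used the same probe sets and share this limit. The median difference over all of them was 0.18 as deposited, -0.19 after each array was centred on its median and -0.08 after quantile normalization. Centred arrays gave 322 higher (6.85%) and 830 lower (17.6%) calls, and quantile normalization 339 (7.21%) and 541 (11.5%). The probe sets called in the same direction in all 3 scalings numbered 305 higher and 231 lower. Values below are on the deposited scale, and counts of calls from the other scalings stand beside those they move by over 1.5 times.

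A pair of hypoxic samples stood apart. Samples 4 and 5 correlated with each other at 0.988 over probe sets, the highest value within the hypoxic group, whose lowest was 0.946. Normoxic samples correlated with each other at 0.964 to 0.986 and hypoxic with normoxic samples at 0.918 to 0.956. Samples 4 and 5 had the highest levels of interferon-induced genes, described below. Leaving both out gave 702 higher (14.9%) and 191 lower (4.06%) probe sets, or 25.4% and 6.95% of the named genes, of which 524 and 147 were called in the same direction with all samples.

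The tissue label was set against cardiomyocyte genes. Titin (Ttn), the elastic filament of the sarcomere, averaged 16.22 ± 1.20 in hypoxic and 17.77 ± 0.61 in normoxic hearts (SD, n = 5 and 4), and Myh7, the beta-myosin heavy chain of the fetal mouse ventricle, averaged 17.36 ± 0.40 in hypoxic and 16.58 ± 1.06 in normoxic hearts. The lowest of the 9 values was 14.58 for Ttn and 15.27 for Myh7, in a table whose values run from 1.69 to 19.93 in these samples. The cardiomyocyte genes Myh6, Tnnt2, Actc1 and Tnni3 were not analysed here. The hearts were measured in bulk, so fewer cells of a type and less RNA per cell cannot be told apart in any of the differences below.

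Cells sense oxygen through hypoxia-inducible factors (HIF). With oxygen present, the alpha subunits HIF-1alpha (Hif1a) and HIF-2alpha (Epas1) are hydroxylated, bound by the von Hippel-Lindau protein and degraded. With little oxygen they pair with ARNT on a short DNA element with the core ACGTG and raise the transcription of glucose transporters, glycolytic enzymes and other genes. After birth the mouse heart normally turns from glucose and lactate to fatty acids as fuel, its cardiomyocytes stop dividing, and fetal sarcomere isoforms give way to adult ones. Interferons act through STAT and IRF factors, whose elements repeat the letters GAAA.

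Promoter letters were read for the genes with values from a RefSeq table (GRCm38.p6, 250 bases before to 50 bases after each gene's start), and 1994 of the 2562 named genes had an entry. The stretches printed here are those around the interferon element in 6 interferon-induced GTPase genes and around the hypoxia core in 6 genes of glucose use, all called higher at P8. The largest rises and the glycolytic rises are described with them below. Each stretch is written 5′ to 3′ on the gene's own strand, and capitals mark the letters that match the interferon element (GAAA, any 2 bases, GAAA) or the hypoxia core (ACGTG) on either strand. A match on the opposite strand reads TTTC, any 2 bases, TTTC, or CACGT, and overlapping matches are counted.
Tgtp2 (chr11:49064254-49064301, minus strand): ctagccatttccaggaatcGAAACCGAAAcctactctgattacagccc
Gbp2 (chr3:142620585-142620632, plus strand): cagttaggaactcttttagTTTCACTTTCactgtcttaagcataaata
Gbp3 (chr3:142559980-142560027, plus strand): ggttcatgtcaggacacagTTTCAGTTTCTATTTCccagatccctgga
Gbp7 (chr3:142530264-142530311, plus strand): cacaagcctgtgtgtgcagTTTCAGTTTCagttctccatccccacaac
Irgm1 (chr11:48871422-48871469, minus strand): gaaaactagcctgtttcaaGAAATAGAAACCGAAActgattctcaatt
Irgm2 (chr11:58214894-58214941, plus strand): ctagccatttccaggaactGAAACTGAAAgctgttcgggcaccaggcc
Slc2a1 (chr4:119108687-119108735, plus strand): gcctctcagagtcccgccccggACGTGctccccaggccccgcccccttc
Slc16a3 (chr11:120949018-120949066, plus strand): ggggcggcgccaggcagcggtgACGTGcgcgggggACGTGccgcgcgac
Ldha (chr7:46845637-46845685, plus strand): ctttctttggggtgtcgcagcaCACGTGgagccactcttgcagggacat
Aldoa (chr7:126799354-126799402, minus strand): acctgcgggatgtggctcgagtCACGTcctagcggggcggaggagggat
Pgk1 (chrX:106186928-106186976, plus strand): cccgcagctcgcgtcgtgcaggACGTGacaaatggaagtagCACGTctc
Pgam1 (chr19:41911735-41911783, plus strand): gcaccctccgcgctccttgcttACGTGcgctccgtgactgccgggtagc

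The interferon element lay in the promoters of 6 of the 7 GTPase genes that were called higher and had an entry, against 1079 of the 27025 genes of the promoter table (3.99%). Among the named genes they were in 36 of 552 called higher (6.52%), 10 of 188 called lower (5.32%) and 46 of 1254 not called (3.67%). The antiviral and interferon signalling genes called higher held them in 13 of 35 promoters (37.1%). In the 6 GTPase promoters the match began 24 to 70 bases before the start, as Tgtp2 at 70 and Irgm1 at 30 and 24 bases before it show. The core ACGTG was in 9 of the 15 promoters of called glycolysis genes (60%) and in 4 of the 6 called members of the list of HIF targets with an entry (66.7%), where Gpi1 stands in both lists, against 5886 of 27025 genes (21.8%). Over all named genes it was in 162 of 552 called higher (29.3%), 42 of 188 called lower (22.3%) and 346 of 1254 not called (27.6%). A match is a run of letters and not a measured binding site.

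**Figure D1:**
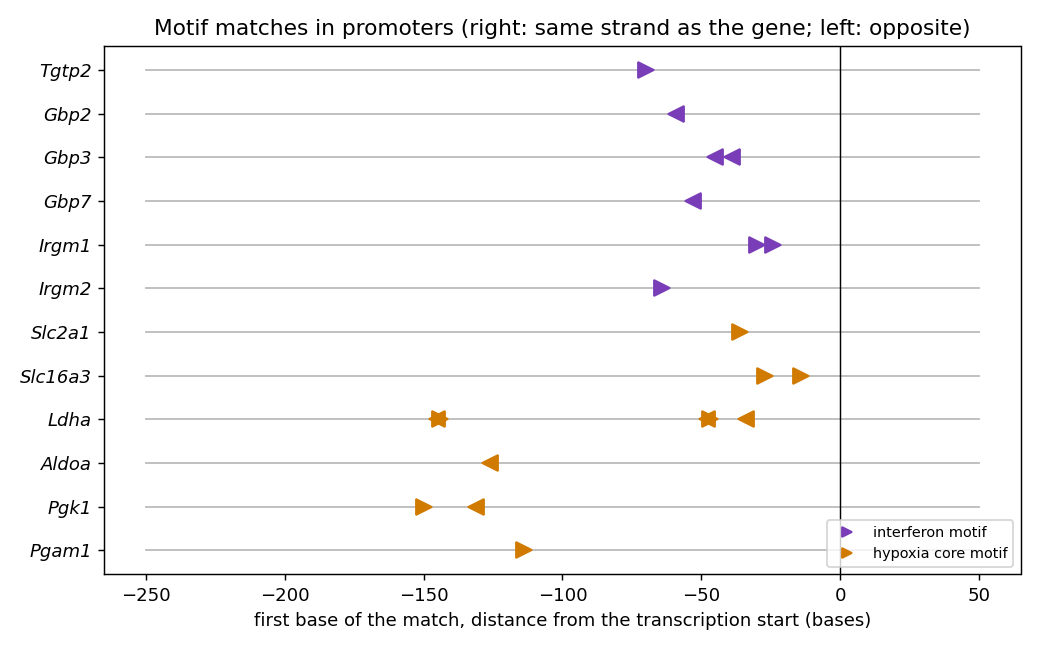
Positions of the matches in the 12 promoters whose stretches are printed above (horizontal axis: first base of the match in bases from the transcription start, 250 before to 50 after; 1 row per gene; marker pointing right: match on the gene's strand, left: on the opposite strand). The interferon matches of the 6 GTPase genes lie 24 to 70 bases before the start and the hypoxia core matches 14 to 150 bases before it.

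Of 17 genes listed as oxygen sensing machinery, Hif1a and Epas1 had values per sample. Egln3, a prolyl hydroxylase that marks the alpha subunits and is itself a HIF target, had values too and is counted with the targets. Epas1 fell. It stood at 11.42, 10.76, 11.44, 10.60 and 10.45 in hypoxic samples 4, 5, 6, 7 and 8 (the order used throughout), against 12.39, 12.15, 13.05 and 12.56 in normoxic samples 13, 22, 23 and 24. All 5 hypoxic hearts were below all 4 normoxic hearts, a log2 difference of -1.60 ± 0.28 (SE, adjusted p = 0.00188). Hif1a averaged 14.39 ± 0.14 in hypoxic and 14.29 ± 0.40 in normoxic hearts and was not called (difference 0.11 ± 0.24). Its sign turned to -0.26 with centred arrays, -0.17 with quantile normalization and -0.06 without normoxic sample 24. In the authors' deposited table, where 4351 probe sets are listed for P8, Vhl has a fold of 1.81 with a q-value of 0.2001.

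Targets of HIF rose in part. The list holds 2 genes counted again below, the glycolytic enzyme Gpi1 and the glycogen synthase Gys1, both called higher. Of 19 measured, 10 were called higher (52.6%, against 26.8%) and none lower, and the list's median difference was 1.16, against 0.65. Mif, a secreted cytokine and known HIF target, stood at 10.46, 9.82, 10.64, 10.86 and 9.53 in hypoxic and 7.46, 7.83, 7.17 and 7.44 in normoxic hearts (difference 2.79 ± 0.26, adjusted p = 5.04e-06). The closest hypoxic and normoxic hearts were 1.70 apart for this gene. Bnip3, a receptor that marks mitochondria for removal, stood at 11.00, 11.20, 10.89, 10.18 and 10.09 in hypoxic and 8.45, 8.51, 8.22 and 8.56 in normoxic hearts, a rise of 2.24 ± 0.30 (adjusted p = 0.00025). Ndrg1, a stress gene induced by low oxygen, averaged 8.75 ± 0.66 in hypoxic and 6.20 ± 0.67 in normoxic hearts (adjusted p = 0.000162). Angptl4, which inhibits lipoprotein lipase, averaged 10.47 ± 0.31 in hypoxic and 8.35 ± 0.50 in normoxic hearts (adjusted p = 0.00082). Egln3 stood at 15.00, 14.60, 15.42, 14.96 and 14.50 in hypoxic and 11.96, 12.69, 13.34 and 13.21 in normoxic hearts (difference 2.10 ± 0.51, adjusted p = 0.0216), a call lost without normoxic sample 13 or 22 or hypoxic sample 6 and with centred arrays. The count was 7 to 9 when any 1 sample was left out and 9 without hypoxic samples 4 and 5. It was 6 higher with 2 lower when arrays were centred and 7 higher with 2 lower after quantile normalization.

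Genes of glucose transport, glycolysis and lactate export rose. Of 19 measured 15 were called higher (78.9%) and none lower, and the median was 1.35. All 19 differences were above 0 as deposited, and the smallest, of Pfkfb1 (0.02), turned to -0.35 with centred arrays and -0.42 with quantile normalization. The authors' P8 list, a source of the names, holds 21 genes of this list as higher and none as lower. The shared side is therefore no separate result. Slc2a1, the basal glucose transporter GLUT1, stood at 11.88, 11.47, 11.63, 11.02 and 11.29 in hypoxic and 8.60, 8.70, 8.22 and 8.69 in normoxic hearts. This was a difference of 2.91 ± 0.23, or 7.49-fold (adjusted p = 1.75e-06), with the groups 2.32 units apart at their closest. Slc16a3, the lactate exporter MCT4, stood at 8.41, 7.97, 8.91, 9.36 and 7.94 in hypoxic and 5.05, 5.46, 5.64 and 5.05 in normoxic hearts, a 9.3-fold rise (adjusted p = 3.17e-06). The platelet-type phosphofructokinase Pfkp, which commits glucose to glycolysis, stood at 12.67, 12.70, 13.13, 13.91 and 13.98 in hypoxic and 10.32, 9.93, 10.31 and 9.97 in normoxic hearts (difference 3.15 ± 0.27, adjusted p = 2.48e-06). These were the 3 smallest adjusted p-values of the list. Pfkl, the liver-type enzyme, rose by 2.07 ± 0.24, and hypoxic sample 5 lay below the other 4 hypoxic hearts for it (10.82, against 11.52 to 11.71).

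Further down the pathway, aldolase A (Aldoa) averaged 19.51 ± 0.24 in hypoxic and 18.16 ± 0.38 in normoxic hearts (adjusted p = 0.000532). Ldha, which makes lactate from pyruvate, stood at 19.58, 19.16, 19.40, 18.97 and 19.74 in hypoxic and 17.60, 17.70, 18.24 and 17.51 in normoxic hearts, a difference of 1.61 ± 0.25 (adjusted p = 0.000691). Pgk1 rose by 1.30 ± 0.21 and Pgam1 by 1.84 ± 0.42, and the Pgam1 call was lost without normoxic sample 23 (1.73, adjusted p = 0.0504). Pdk1, a kinase that restrains the entry of pyruvate into the citric acid cycle, averaged 14.46 ± 0.24 in hypoxic and 13.12 ± 0.41 in normoxic hearts (adjusted p = 0.00342). The median of the 19 genes per sample was 11.47 to 11.88 in hypoxic and 9.09 to 9.57 in normoxic hearts. The list held 14 to 16 calls with any 1 sample left out and 15 or 16 in both other scalings, beside backgrounds of 12.1% (centred) and 12.8% (quantile) called higher.

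Glycogen genes moved both ways. Of 10 glycogen and pentose phosphate genes, 5 were called higher (50%, against 26.8%) and 2 lower (20%, against 9.68%). Gys1, the muscle glycogen synthase, stood at 11.23, 10.48, 12.23, 12.05 and 11.88 in hypoxic and 9.58, 9.82, 9.63 and 10.10 in normoxic hearts (adjusted p = 0.00302). Pygl, the liver-type glycogen phosphorylase, averaged 8.75 ± 0.31 in hypoxic and 7.03 ± 0.25 in normoxic hearts (adjusted p = 0.00224). Phkg1, the muscle-type catalytic subunit of phosphorylase kinase, averaged 5.48 ± 0.30 in hypoxic and 7.11 ± 0.49 in normoxic hearts and fell by 1.64 on the log2 scale (adjusted p = 0.0177). Its call was lost without normoxic sample 22 (adjusted p = 0.0685) or 24 (0.0503) and without hypoxic samples 4 and 5 (0.0508). Pgd, an enzyme of the oxidative pentose phosphate pathway, rose by 1.10 (adjusted p = 0.0131), a call lost without normoxic sample 24 (0.0501) and in both other scalings. Without hypoxic samples 4 and 5 none was called lower. The higher count was 3 without normoxic sample 23, without hypoxic sample 8 or without hypoxic samples 4 and 5, and 2 without normoxic sample 24 or with either other scaling.

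Of 11 genes of cholesterol synthesis and uptake, 10 were called higher (90.9%, against 26.8%), and all 11 differences were above 0 (median 1.35). All 11 also stand as higher in the authors' P8 list that named them, so their shared side is no separate result. Msmo1, which acts on sterol intermediates, stood at 5.67, 5.09, 5.39, 6.14 and 6.24 in hypoxic and 4.36, 4.76, 4.23 and 4.06 in normoxic hearts (difference 1.35 ± 0.24, adjusted p = 0.00266). The lowest hypoxic heart lay above the highest normoxic heart for this gene. Cyp51, another enzyme of that stretch, rose by 1.20 ± 0.23. Insig1, which holds the sterol sensor of the pathway in the endoplasmic reticulum, averaged 8.38 ± 0.50 in hypoxic and 6.81 ± 0.54 in normoxic hearts. The pathway's transcription factor Srebf2 rose by 1.69 (adjusted p = 0.0138, and 0.0502 without normoxic sample 24). The list had 9 calls without hypoxic samples 4 and 5, 6 without normoxic sample 24 and 6 in either other scaling. With the P8 samples alone in the fit it had 5.

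Among 11 genes of lipid droplets and lipid synthesis, 6 were called higher and none lower. Lipe, the hormone-sensitive lipase, stood at 8.03, 8.93, 8.92, 8.24 and 8.38 in hypoxic and 5.94, 7.07, 6.22 and 6.33 in normoxic hearts (adjusted p = 0.000271). Plin2, a coat protein of lipid droplets, averaged 10.84 ± 0.46 in hypoxic and 8.97 ± 0.68 in normoxic hearts (adjusted p = 0.00368). Leaving out normoxic sample 22, hypoxic sample 5, or hypoxic samples 4 and 5 gave 3 calls, as did either other scaling.

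Fatty acid genes rose in part. Of 20 genes of fatty acid uptake and oxidation 10 were called higher (50%) and none lower, with a median of 0.91. Cpt1b, the muscle enzyme for fatty acid entry into mitochondria, stood at 15.37, 14.79, 15.74, 15.78 and 16.19 in hypoxic and 14.10, 14.35, 14.25 and 14.07 in normoxic hearts (difference 1.38 ± 0.25, adjusted p = 0.00261). The acyl-CoA thioesterases Acot1 (cytosolic) and Acot2 (mitochondrial) rose by 2.46 ± 0.27 and 3.13 ± 0.57. Their sequences are closely related, and the probe sets may share signal. Acot2 stood at 16.41, 15.83, 18.66, 17.46 and 18.68 in hypoxic and 13.84, 14.67, 15.21 and 13.40 in normoxic hearts, with the hypoxic samples 6, 7 and 8 above samples 4 and 5. The count was 9 without hypoxic samples 4 and 5, 6 without normoxic sample 13 or 24, and 6 with quantile normalization. It was 4 higher with 2 lower when arrays were centred, and 3 with the P8 samples alone in the fit.

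The respiratory chain was split. Of 24 measured genes of the chain and ATP synthase 3 were called higher and 3 lower (12.5% each, against 26.8% and 9.68%). The median was -0.64, against 0.65 for named genes. Cox8a and Cox6a1, subunits of cytochrome c oxidase in their widely expressed forms, averaged 15.64 ± 0.49 and 15.62 ± 0.41 in hypoxic hearts, against 14.09 ± 0.33 and 14.26 ± 0.40 in normoxic hearts (adjusted p = 0.00261 and 0.00674). Ndufa4, a small cytochrome c oxidase protein first assigned to complex I, stood at 18.61, 18.34, 18.09, 18.61 and 18.20 in hypoxic and 18.97, 19.43, 19.11 and 19.54 in normoxic hearts, a fall of 0.89 (adjusted p = 0.0101). The other 2 lower calls, Ndufb10 of complex I (difference -1.19 ± 0.33) and Atp5j of ATP synthase (-0.75 ± 0.20), were lost without normoxic sample 22, 23 or 24 and without several of the hypoxic samples. Here the scaling decided the count, since 13 of the 24 were called lower with centred arrays (background 30%) and 11 with quantile normalization (19.7%), with 3 higher in each. The lower count was 5 without normoxic sample 13 or without hypoxic samples 4 and 5, and 1 without normoxic sample 22, 23 or 24 or hypoxic sample 5, 7 or 8. Leaving out hypoxic samples 4 and 5 gave 5 higher.

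Mitochondrial ribosome and import genes had 2 of 18 called lower (11.1%, against 9.68%), none higher and a median of -0.53. Centred arrays gave 11 lower and quantile normalization 6. Without normoxic sample 22 or 24 no gene of that list was called, and without hypoxic samples 4 and 5 there were 2 lower and 1 higher. Ckmt2, the mitochondrial creatine kinase of striated muscle, stood at 13.66, 13.04, 12.35, 13.47 and 12.56 in hypoxic and 13.83, 14.88, 15.74 and 15.93 in normoxic hearts, a fall of 2.08 on the log2 scale (adjusted p = 0.00261). Its highest hypoxic value, 13.66, lay just under the lowest normoxic value, 13.83. Fumarase (Fh1), of the citric acid cycle, averaged 13.26 ± 0.46 in hypoxic and 14.52 ± 0.40 in normoxic hearts (adjusted p = 0.0105), while Got1, the cytosolic aspartate aminotransferase, averaged 15.24 ± 0.36 in hypoxic and 13.97 ± 0.43 in normoxic hearts (adjusted p = 0.00824). These 2 genes lay on opposite sides, with no overlap between groups in either.

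Amino acid genes that answer to ATF4, the transcription factor of the amino acid and integrated stress responses, rose in part. Of 21 measured 11 were called higher (52.4%) and none lower, 19 differences were above 0 and the median was 1.15. Slc7a5, a transporter of large neutral amino acids, stood at 9.52, 7.98, 9.40, 9.27 and 8.84 in hypoxic and 6.73, 6.22, 5.53 and 6.10 in normoxic hearts (difference 2.86 ± 0.34, adjusted p = 6.83e-05). Asns, which makes asparagine, stood at 9.26, 7.49, 7.31, 8.44 and 8.74 in hypoxic and 5.77, 5.08, 5.56 and 5.97 in normoxic hearts (adjusted p = 0.000186). Psat1, of serine synthesis, rose by 2.39 ± 0.35 and Mthfd2, of the mitochondrial folate cycle, by 2.38 ± 0.40. Wars, the tryptophan tRNA synthetase, which interferon also induces in human cells, stood at 12.24, 13.21, 9.97, 9.76 and 11.05 in hypoxic and 7.68, 7.71, 8.23 and 8.11 in normoxic hearts. Its 2 highest values were those of hypoxic samples 4 and 5, and its difference was 3.31 with all samples and 2.33 without that pair (adjusted p = 0.000642 and 0.000352). The count was 8 without hypoxic samples 4 and 5 and 6 without normoxic sample 24. It was 6 higher with 1 lower after quantile normalization and 5 higher with 1 lower when arrays were centred.

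**Figure D2:**
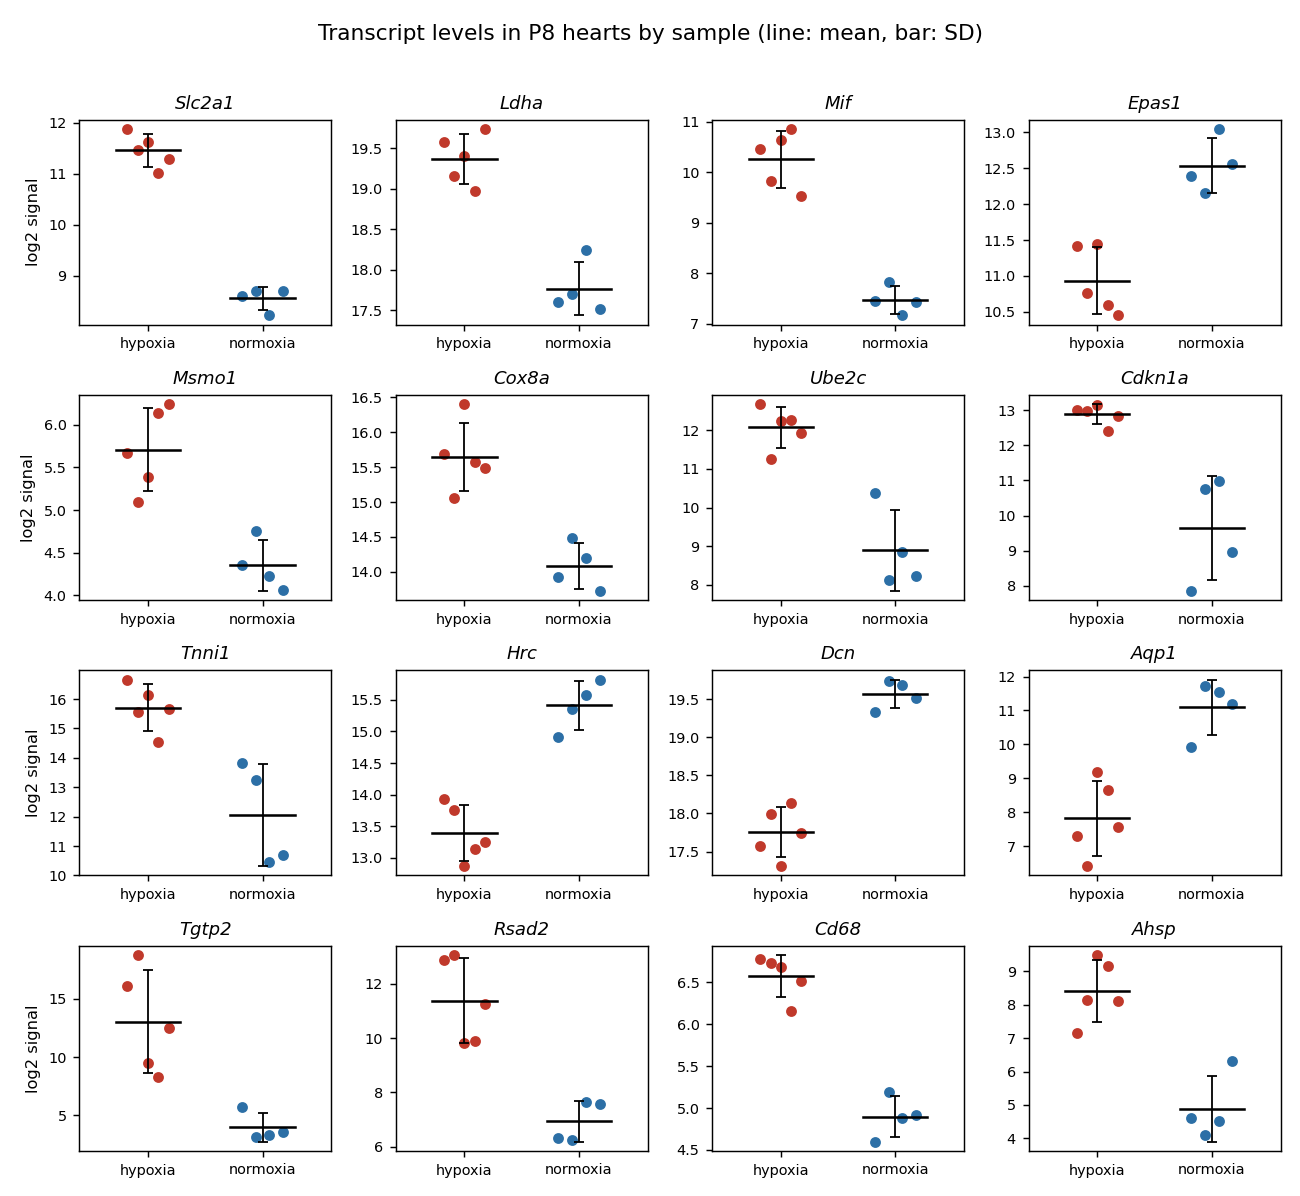
Log2 signal of 16 genes in each P8 heart (vertical axes; hypoxia left, normoxia right; each point is a sample, the line the mean and the bar the SD of 5 hypoxic and 4 normoxic samples). The groups do not overlap in any of the 16 panels, and Tgtp2 spreads from 8.27 to 18.78 among the hypoxic hearts.

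Cell division genes were higher in hypoxia. Of 99 listed genes of mitosis, spindle and kinetochore 71 were measured. Of these 39 were called higher (54.9%) and none lower, and the median was 1.44. All 71 differences were above 0, but all 71 genes also stand as higher in the authors' P8 list that named them. Their shared side is therefore no separate result. Ube2c, the conjugating enzyme of the anaphase-promoting complex, stood at 12.68, 11.27, 12.25, 12.28 and 11.93 in hypoxic and 10.38, 8.11, 8.85 and 8.21 in normoxic hearts (difference 3.20 ± 0.37, adjusted p = 5.24e-05). Ccnb1, the cyclin that drives entry into mitosis, stood at 9.74, 8.72, 9.12, 8.58 and 8.78 in hypoxic and 7.63, 6.18, 6.04 and 5.86 in normoxic hearts (adjusted p = 0.000131). In both genes normoxic sample 13 was the highest of its group, yet below every hypoxic heart. Cdca3, which helps mitotic entry, averaged 8.44 ± 0.19 in hypoxic and 5.85 ± 0.81 in normoxic hearts (adjusted p = 0.00025), and Aurka, a kinase of the spindle poles, rose by 1.83. The list's median per sample was 7.19 to 8.03 in hypoxic hearts, 7.23 in normoxic sample 13 and 5.52 to 5.75 in the other 3 normoxic hearts. The count was 58 without normoxic sample 13 and 25 without normoxic sample 22 or 24 or without hypoxic sample 7. It was 36 without hypoxic samples 4 and 5, 23 in each of the other scalings and 19 with the P8 samples alone in the fit.

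Of 30 replication genes, 15 were called higher and none lower (median 1.17). Rrm2, a subunit of the enzyme that makes deoxynucleotides, stood at 10.86, 10.71, 11.22, 11.63 and 11.66 in hypoxic and 9.71, 8.24, 8.10 and 7.15 in normoxic hearts (adjusted p = 0.000225). Asf1b, a histone chaperone of replicating cells, averaged 9.72 ± 0.56 in hypoxic and 8.01 ± 0.66 in normoxic hearts (adjusted p = 0.00315), with hypoxic sample 5 (8.85) below normoxic sample 13 (8.93). The count was 17 without hypoxic samples 4 and 5, 7 without normoxic sample 24, 8 without normoxic sample 22 or 23 and 9 without hypoxic sample 6. Centred arrays gave 5, quantile normalization 3 and the P8 samples alone in the fit 5.

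Inhibitors of the cell cycle moved both ways. Of 7 measured inhibitors and p53 targets 3 were called higher (42.9%, against 26.8%) and 1 lower (14.3%, against 9.68%). Of the differences 4 were below 0 (median -0.42). Cdkn1a (p21), which blocks cyclin-dependent kinases, stood at 13.01, 12.99, 13.16, 12.41 and 12.84 in hypoxic and 7.86, 10.77, 10.98 and 8.97 in normoxic hearts. The hypoxic values lay within 0.75 of each other and the normoxic values were spread over 3.12, with a difference of 3.24 ± 0.53 (adjusted p = 0.00119). Cdkn2d (p19), another inhibitor, averaged 7.68 ± 0.42 in hypoxic and 6.37 ± 0.45 in normoxic hearts (adjusted p = 0.00782), and its call was lost with centred arrays (0.95, adjusted p = 0.0544) and with quantile normalization (0.91). The lower call was that of Cdkn2a, the locus of the inhibitor p16 and of ARF (-0.85 ± 0.23, adjusted p = 0.0365). It was lost with quantile normalization and without normoxic sample 22, 23 or 24. It was also lost without hypoxic sample 4, 5, 7 or 8 and without hypoxic samples 4 and 5. Cdkn2a is dim, with authors' averages of 1.97 in hypoxia and 2.91 in normoxia, near the lowest value of these samples (1.69). For the list, centred arrays gave 1 higher and 3 lower and quantile normalization 1 and none. Leaving out hypoxic samples 4 and 5 gave 2 and none. Myc, the growth transcription factor, stood at 9.06, 8.88, 8.99, 8.65 and 8.44 in hypoxic and 6.35, 6.23, 7.23 and 6.66 in normoxic hearts (adjusted p = 0.00248).

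Genes of fetal and early postnatal growth rose in part. Igf2bp2, a fetal RNA-binding protein, stood at 7.54, 7.00, 7.97, 7.84 and 8.50 in hypoxic and 6.01, 5.93, 6.20 and 5.54 in normoxic hearts (adjusted p = 0.00071). Of 9 imprinted growth genes 6 were called higher and none lower, with a median of 1.37. Grb10, an imprinted adaptor that restrains insulin signalling, averaged 13.65 ± 0.54 in hypoxic and 11.88 ± 0.51 in normoxic hearts (adjusted p = 0.000982), and Peg3, an imprinted zinc finger gene, averaged 9.95 ± 0.30 in hypoxic and 7.84 ± 0.77 in normoxic hearts (adjusted p = 0.00189). The count was 8 without hypoxic samples 4 and 5. It was 2 without normoxic sample 22, 23 or 24 or hypoxic sample 6 and with centred arrays, and 3 without hypoxic sample 7 or 8 and with quantile normalization.

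Sarcomere genes split, with 6 of 26 called higher (23.1%, against 26.8%) and 4 lower (15.4%, against 9.68%). Their median of 0.11 turned to -0.25 with centred arrays and -0.11 with quantile normalization. Tnni1, the slow troponin I of the fetal heart, stood at 16.66, 15.55, 16.15, 14.54 and 15.66 in hypoxic and 13.83, 13.23, 10.44 and 10.69 in normoxic hearts (difference 3.66 ± 0.59, adjusted p = 0.00106). The normoxic hearts formed 2 levels for Tnni1, samples 13 and 22 above samples 23 and 24, and all lay below the hypoxic hearts. Fhl2, a LIM protein of the cardiac sarcomere, stood at 16.83, 16.59, 16.58, 17.21 and 17.06 in hypoxic and 17.73, 18.14, 17.96 and 18.33 in normoxic hearts (adjusted p = 0.00341), and Cmya5, a protein of the Z-disc region, averaged 8.42 ± 0.58 in hypoxic and 9.98 ± 0.40 in normoxic hearts (adjusted p = 0.00261). Titin stood at 17.56, 17.23, 14.58, 16.05 and 15.70 in hypoxic and 18.63, 17.17, 17.68 and 17.61 in normoxic hearts, so hypoxic samples 4 and 5 lay in the normoxic range and samples 6, 7 and 8 below it. Its difference of -1.55 ± 0.43 (adjusted p = 0.0412) was not called without normoxic sample 13, 23 or 24 or hypoxic sample 6, 7 or 8, and was -2.33 without hypoxic samples 4 and 5 (adjusted p = 0.000352). Myh7 was not called (difference 0.78 ± 0.38), nor was Nppb, the B-type natriuretic peptide of strained heart muscle (0.75 ± 0.63), whose sign turned without normoxic sample 13 (-0.05). The higher count of the list was 8 without hypoxic samples 4 and 5, 3 without normoxic sample 22, 1 without sample 24, 2 without hypoxic sample 7 and 3 in either other scaling. The lower count was 2 without normoxic sample 24, 9 with centred arrays and 7 with quantile normalization.

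Of 12 cardiomyocyte marker genes, none was called higher and 6 were called lower (50%, against 9.68%), with a median of -1.23. The 6 were Ttn, the calcium release channel Ryr2, its anchor Trdn, Ckmt2 and the potassium channel genes Kcnd2 and Kcnip2. Of the 12 differences 3 were above 0, those of Xirp1 (0.99), Gata4 (0.90) and Nkx2-5 (0.76), and none of these was called. The call of Ryr2 was lost without any 1 sample other than hypoxic sample 5, and that of Kcnip2 without normoxic sample 22, 23 or 24 or without hypoxic samples 4 and 5. The sample medians of the 12 were 12.38 to 12.71 in hypoxic hearts and 12.54 to 13.20 in normoxic hearts, so the groups overlapped through normoxic sample 13. The count was 5 without hypoxic samples 4 and 5, 3 without normoxic sample 23 or 24, 9 with centred arrays and 7 with quantile normalization.

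Calcium handling moved both ways, with 5 of 12 genes lower (41.7%, against 9.68%) and 3 higher (25%, against 26.8%). Hrc, a calcium-binding protein of the sarcoplasmic reticulum, stood at 13.93, 13.76, 12.87, 13.14 and 13.25 in hypoxic and 14.91, 15.36, 15.57 and 15.82 in normoxic hearts, a fall of 2.02 (adjusted p = 0.000431). The closest hypoxic and normoxic hearts were 0.98 apart for Hrc. Trdn, which ties the release channel to calsequestrin, stood at 15.41, 15.76, 14.96, 15.13 and 14.86 in hypoxic and 15.74, 16.32, 16.68 and 16.43 in normoxic hearts (adjusted p = 0.00912), with hypoxic sample 5 just above normoxic sample 13. Slc8a1, the sodium-calcium exchanger, rose to 15.24 ± 0.20 in hypoxic hearts, against 13.95 ± 0.49 in normoxic hearts (adjusted p = 0.00544), and Srl, a calcium-binding protein of the reticulum, to 15.95 ± 0.27 in hypoxic hearts, against 14.84 ± 0.18 in normoxic hearts (adjusted p = 0.00248). The lower count was 2 without normoxic sample 23 or 24 or hypoxic sample 6 or 8, and 3 without normoxic sample 22 or hypoxic sample 4. Without hypoxic samples 4 and 5 there were 4 lower and 4 higher. The median of the list was 0.24 as deposited, -0.13 with centred arrays and -0.04 with quantile normalization.

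Of 20 ion channel, connexin and pump genes 5 were called lower (25%, against 9.68%) and 4 higher (20%, against 26.8%). Kcnd2, a channel subunit of the transient outward current, stood at 5.13, 4.06, 4.91, 4.70 and 3.53 in hypoxic and 5.37, 7.37, 7.91 and 7.55 in normoxic hearts (difference -2.58 ± 0.48, adjusted p = 0.00312). Normoxic sample 13 lay near the hypoxic hearts, 0.24 above the highest of them. Gja1, the main ventricular connexin, fell by 1.37 (adjusted p = 0.0253), a call lost without normoxic sample 13, 22 or 23 or hypoxic sample 6. Scn3b, a sodium channel beta subunit, rose to 6.22 ± 0.66 in hypoxic hearts, against 4.60 ± 0.36 in normoxic hearts (adjusted p = 0.00487). The lower count was 3 without normoxic sample 22 or 23 or without hypoxic samples 4 and 5, 9 with centred arrays and 8 with quantile normalization. The higher count was 3 without hypoxic samples 4 and 5, 2 without normoxic sample 22 or 23 or hypoxic sample 6, 7 or 8, 1 without normoxic sample 24 and 1 in either other scaling. A further 20 genes of this list appear in the authors' deposited table without values per sample here. That table lists all 20 as lower in hypoxia, beside 2111 of its 4351 probe sets at P8. An entry there needs only an unadjusted p of at most 0.0499, and the 20 were not tested here. Clcn2, 1 of them, is dim, with averages of 2.72 in hypoxia and 3.16 in normoxia and a q-value of 0.221.

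**Figure D3:**
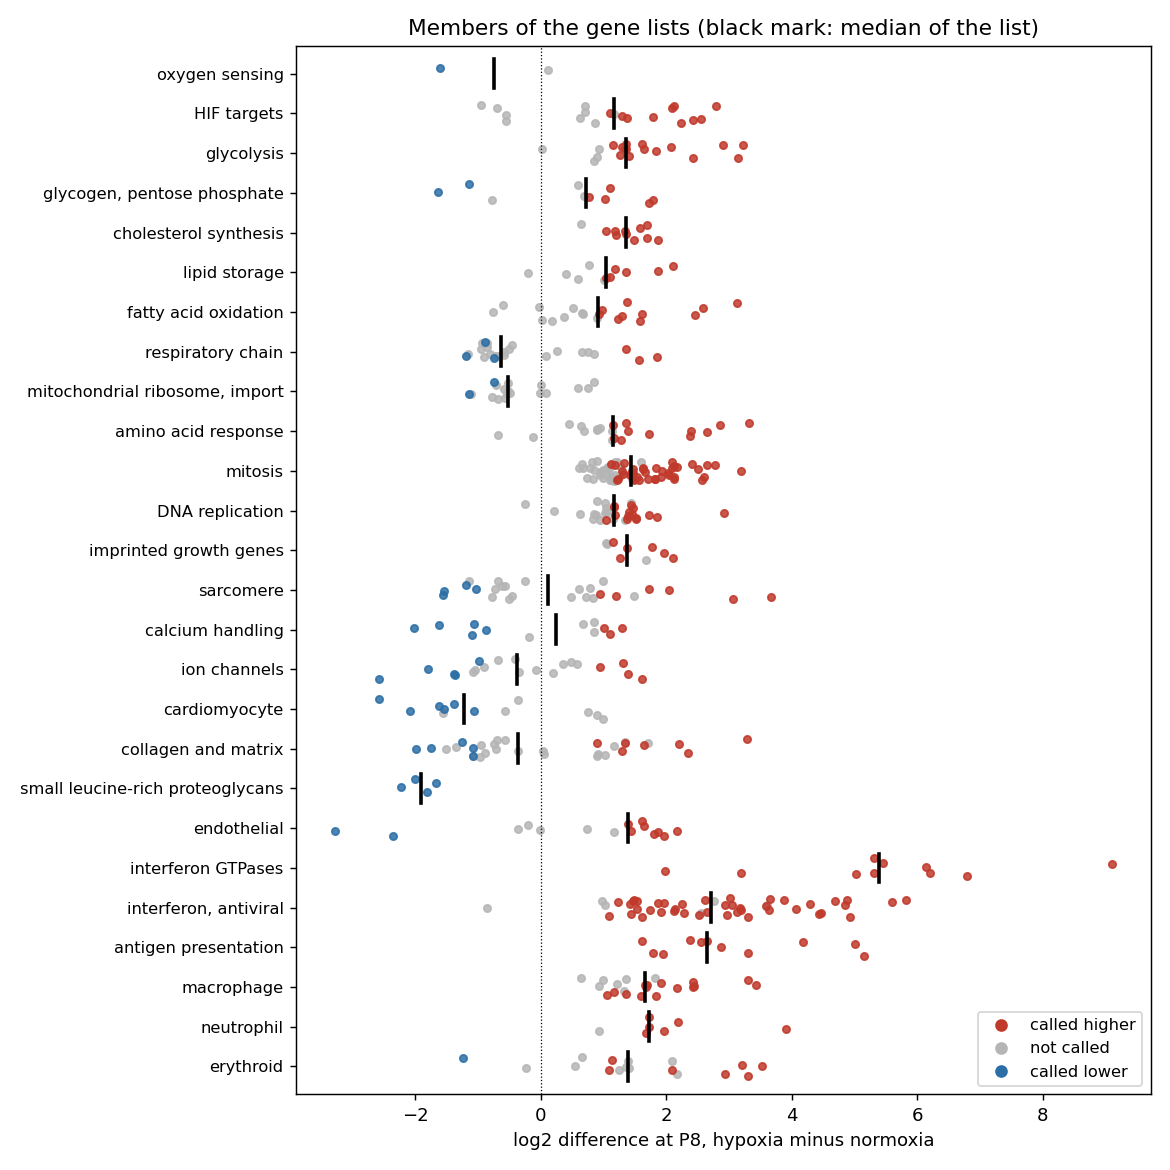
Log2 difference at P8, hypoxia minus normoxia (horizontal axis), for the measured members of 26 gene lists, 1 point per gene (red: called higher, grey: not called, blue: called lower; black mark: median of the list). Interferon GTPases lie farthest to the right (median 5.39) and the small leucine-rich proteoglycans farthest to the left (median -1.91). The medians of sarcomere and calcium handling turn below 0 when arrays are centred or quantile normalized.

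The 4 measured small leucine-rich proteoglycans, which bind collagen and are made by fibroblasts, fell. All 4 were called lower (background 9.68%), in each of the settings tried. The authors' deposited table holds 2 more genes of this list without values per sample here, 1 higher and 1 lower in hypoxia. The higher one is Bgn (biglycan), with a fold of 2.48 and a q-value of 0.1056, so the family did not fall as a whole. Dcn (decorin) stood at 17.58, 17.99, 17.31, 18.14 and 17.74 in hypoxic and 19.33, 19.74, 19.69 and 19.51 in normoxic hearts, a difference of -1.82 ± 0.21 (adjusted p = 5.65e-05). Lum (lumican) stood at 12.45, 12.60, 12.22, 12.74 and 12.30 in hypoxic and 13.57, 15.00, 14.72 and 14.61 in normoxic hearts, with normoxic sample 13 nearest to the hypoxic hearts (adjusted p = 0.00242). Ogn (osteoglycin) averaged 15.05 ± 0.23 in hypoxic and 16.73 ± 0.51 in normoxic hearts, and Ecm2, a related matrix protein, averaged 8.43 ± 0.22 in hypoxic and 10.66 ± 0.72 in normoxic hearts (adjusted p = 0.000743 and 0.000271). Fibroblast and epicardial markers as a list had 3 of 16 called higher and 3 lower (18.8% each). There were 6 lower with centred arrays and 5 with quantile normalization. The median of 0.20 turned to -0.16 with centred arrays and -0.18 with quantile normalization. Sample medians were 6.27 to 7.40 in hypoxic and 6.29 to 6.67 in normoxic hearts. The 3 lower were Dcn, Lum and Dpt. The 3 higher were Ly6a (4.68), which is also in the antiviral and interferon list, Krt18 (1.84) and Krt19 (1.78). Col1a1 (-0.96) and Col3a1 (-1.51) were not called.

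Other matrix genes moved both ways, with 7 of 31 called higher (22.6%, against 26.8%) and 5 lower (16.1%, against 9.68%) and a median of -0.37. Timp3, an inhibitor of metalloproteinases, stood at 9.88, 11.10, 10.62, 9.62 and 10.25 in hypoxic and 5.55, 8.07, 7.35 and 7.06 in normoxic hearts (difference 3.29 ± 0.51, adjusted p = 0.00078). Fbln2 (fibulin 2), a matrix protein of developing heart valves and vessels, averaged 10.02 ± 1.03 in hypoxic and 7.67 ± 0.61 in normoxic hearts (adjusted p = 0.00173). Hypoxic samples 6, 7 and 8 were 10.41 to 11.31 for Fbln2 and samples 4 and 5 were 9.14 and 8.80. Col15a1, a basement membrane collagen of heart capillaries, averaged 6.20 ± 0.53 in hypoxic and 8.20 ± 0.54 in normoxic hearts (adjusted p = 0.000622). The higher count was 3 without normoxic sample 24, 4 without normoxic sample 22 or hypoxic sample 6 or 7 and 4 with centred arrays. The lower count was 14 with centred arrays and 13 with quantile normalization. Without hypoxic samples 4 and 5 there were 8 higher and 5 lower.

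Bmp7, a growth factor of the TGF-beta family, rose. It stood at 6.30, 5.85, 8.15, 7.47 and 8.24 in hypoxic and 4.84, 4.71, 4.45 and 4.34 in normoxic hearts (difference 2.62 ± 0.40, adjusted p = 0.000691), and without hypoxic samples 4 and 5 the difference was 3.37. Of 12 TGF-beta and BMP genes 4 were called higher (33.3%, against 26.8%) and 1 lower (8.33%, against 9.68%), shares near the background. Without hypoxic samples 4 and 5 the higher count was 7. Either other scaling gave 2 higher, with 3 lower when arrays were centred and 2 after quantile normalization.

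Endothelial genes did not move as a block. Of 15 measured 8 were called higher (53.3%) and 2 lower (13.3%). The higher count was 6 in either other scaling, 6 to 8 when any 1 sample was left out and 7 without hypoxic samples 4 and 5, which also left 1 lower. Eng (endoglin), a BMP co-receptor of endothelium, stood at 14.54, 14.65, 15.67, 14.79 and 14.69 in hypoxic and 13.19, 13.30, 13.43 and 13.10 in normoxic hearts (adjusted p = 0.000691). Fli1, an endothelial and blood cell transcription factor, averaged 10.70 ± 0.28 in hypoxic and 9.31 ± 0.37 in normoxic hearts (adjusted p = 0.00339), and the VEGF receptor Flt1 rose by 1.44. On the other side, Aqp1, the water channel of capillary endothelium and red cells, stood at 7.29, 6.41, 9.19, 8.64 and 7.55 in hypoxic and 9.92, 11.72, 11.54 and 11.20 in normoxic hearts, a 9.71-fold fall (adjusted p = 0.000271). Aplnr, the apelin receptor, averaged 8.12 ± 1.27 in hypoxic and 10.47 ± 0.67 in normoxic hearts (adjusted p = 0.0132). Hypoxic samples 4 and 5 were lowest for it, at 7.35 and 6.28. Without those samples its difference was -1.48 (adjusted p = 0.0679), and without normoxic sample 24 it was -2.21 (adjusted p = 0.0502). Jam2, an endothelial junction protein, averaged 10.91 ± 0.74 in hypoxic and 13.01 ± 0.60 in normoxic hearts (adjusted p = 0.00078). Of 5 measured pericyte and smooth muscle genes 1 was called higher (Mcam, 1.58) and 1 lower (Vtn), with a median of 0.83. Either other scaling gave none higher and 2 lower, and leaving out hypoxic samples 4 and 5 gave 3 higher and 1 lower. Vtn averaged 4.79 ± 0.21 in hypoxic and 6.81 ± 0.47 in normoxic hearts (adjusted p = 0.00204).

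Interferon-induced genes gave the largest differences at P8. All 10 measured interferon-induced GTPases, which defend cells against intracellular pathogens, were called higher, with a median difference of 5.39. Tgtp2 stood at 16.15, 18.78, 9.46, 8.27 and 12.54 in hypoxic and 5.74, 3.14, 3.33 and 3.55 in normoxic hearts (difference 9.10 ± 1.50, adjusted p = 0.00134). Hypoxic samples 4 and 5 were far above samples 6, 7 and 8, and all 5 were above every normoxic heart. Iigp1 stood at 16.52, 18.66, 7.89, 7.63 and 11.97 in hypoxic and 6.96, 5.47, 4.83 and 5.70 in normoxic hearts (adjusted p = 0.0198), with sample 7 only 0.67 above normoxic sample 13. Irgm1 stood at 16.15, 17.90, 9.10, 8.14 and 12.46 in hypoxic and 6.90, 6.78, 6.85 and 5.63 in normoxic hearts (adjusted p = 0.0112). Gbp2 and Gvin1 rose by 6.14 ± 1.34 and 3.20 ± 0.53. The list's median per sample was 14.19 in hypoxic sample 4, 16.95 in sample 5 and 8.21 to 11.16 in samples 6 to 8, against 5.67 to 6.93 in normoxic hearts.

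Without hypoxic samples 4 and 5, 6 of the 10 GTPases were called higher (background 25.4%), with a median of 3.01. Tgtp2 then differed by 6.15 (adjusted p = 0.00115), Gbp2 by 3.28 (0.00447) and Irgm1 by 3.36 (0.0177). Iigp1, with 3.42 (adjusted p = 0.0585), and Irgm2, with 2.66 (0.0895), were not called. A count of 6 also followed from leaving out hypoxic sample 4 alone or normoxic sample 22, 23 or 24, and Iigp1, Irgm2 and Gbp4 were lost each time. With the P8 samples alone in the fit 2 of the 10 were called, and with either other scaling 9.

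Antiviral and interferon signalling genes as a list were also highest in hypoxic samples 4 and 5, with sample medians of 10.05 and 11.27. Samples 6, 7 and 8 lay between 6.73 and 8.50 and the normoxic hearts between 5.38 and 5.90. Of 48 measured 42 were called higher (87.5%) and none lower, with a median of 2.71. Rsad2 (viperin), an antiviral enzyme, stood at 12.88, 13.06, 9.82, 9.90 and 11.25 in hypoxic and 6.32, 6.26, 7.63 and 7.56 in normoxic hearts (difference 4.44 ± 0.56, adjusted p = 0.000128). Lgals3bp, a secreted glycoprotein induced by interferon, stood at 10.16, 9.15, 8.42, 7.14 and 10.55 in hypoxic and 4.88, 4.80, 5.02 and 4.49 in normoxic hearts (adjusted p = 3.65e-05), with sample 8 the highest. Lgals9 (galectin 9) averaged 11.40 ± 1.01 in hypoxic and 7.74 ± 0.71 in normoxic hearts (adjusted p = 0.000162). Irf7, the transcription factor that amplifies the response, stood at 13.10, 12.56, 5.18, 4.21 and 9.03 in hypoxic and 2.98, 3.05, 2.27 and 3.71 in normoxic hearts (adjusted p = 0.0151), and its adjusted p was 0.051 without samples 4 and 5. The count was 21 without hypoxic samples 4 and 5, where Rsad2, Lgals3bp and Lgals9 differed by 3.38, 3.91 and 3.34, and 25 without normoxic sample 22. Centred arrays gave 31, quantile normalization 27 and the P8 samples alone in the fit 11.

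All 11 measured genes of antigen presentation were called higher, with a median of 2.65. Tap1, the peptide transporter, stood at 12.83, 14.38, 7.73, 7.66 and 9.84 in hypoxic and 6.31, 4.61, 4.95 and 5.48 in normoxic hearts (adjusted p = 0.00414). B2m, the common light chain of class I molecules, stood at 19.93, 19.92, 19.10, 18.37 and 19.77 in hypoxic and 17.99, 15.35, 16.22 and 16.60 in normoxic hearts (adjusted p = 0.00905). H2-Q4, a class I heavy chain gene whose family members may share probe signal, averaged 9.74 ± 2.59 in hypoxic and 4.73 ± 0.54 in normoxic hearts (adjusted p = 0.00261). Hypoxic samples 4 and 5 were the highest of their group for all 3 genes. The count was 4 without them, 6 without normoxic sample 23 and 7 without normoxic sample 22 or 24 or with centred arrays. It was 8 with quantile normalization and 3 with the P8 samples alone in the fit.

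**Figure D4:**
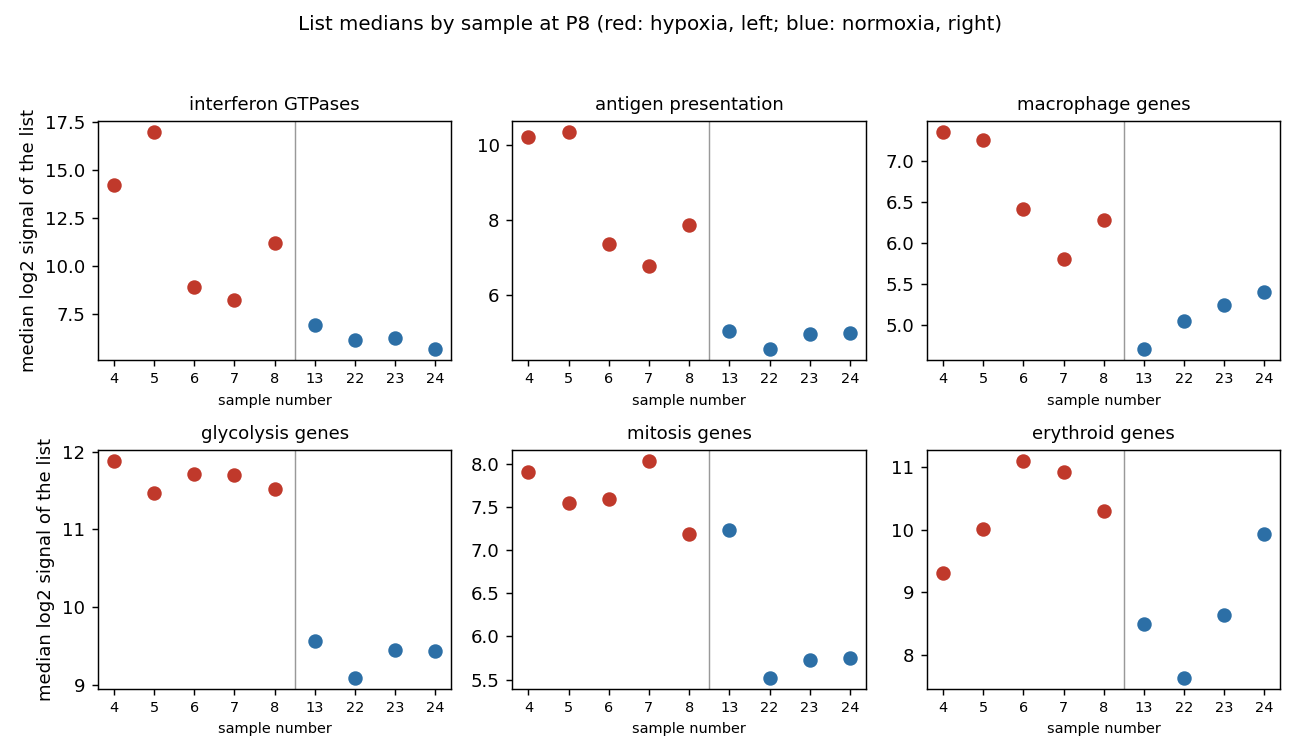
Median log2 signal of the measured genes of 6 lists in each P8 heart (vertical axes; sample numbers on the horizontal axes; red: hypoxia, left; blue: normoxia, right). Interferon GTPases reach 14.19 and 16.95 in hypoxic samples 4 and 5, glycolysis genes are level over the 5 hypoxic hearts (11.47 to 11.88), and mitosis genes are higher in normoxic sample 13 (7.23) than in the other normoxic hearts.

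Macrophage genes were higher too. Of 22 measured 15 were called higher (68.2%) and none lower, and the 22 differences were all above 0 (median 1.67). All 22 also stand as higher in the authors' P8 list that named them, so their shared side is no separate result. Those not called included Adgre1 (0.64), C1qa (0.93) and C1qb (1.32). Cd68, a lysosomal protein of macrophages, stood at 6.78, 6.73, 6.68, 6.16 and 6.52 in hypoxic and 4.60, 5.19, 4.88 and 4.92 in normoxic hearts (difference 1.68 ± 0.23, adjusted p = 0.000271). Laptm5, a lysosomal protein of blood cells, stood at 10.13, 9.66, 10.62, 9.18 and 10.01 in hypoxic and 7.78, 6.79, 7.38 and 7.95 in normoxic hearts (adjusted p = 0.000271). Cybb, a subunit of the phagocyte oxidase that interferon also induces, averaged 9.16 ± 1.11 in hypoxic and 5.74 ± 0.73 in normoxic hearts (adjusted p = 0.000461). Without hypoxic samples 4 and 5 the list had 8 calls and a median of 1.11. Cd68, Laptm5 and Cybb then differed by 1.56, 2.46 and 2.63. Centred arrays gave 8 and quantile normalization 9. The list's sample medians were 5.81 to 7.35 in hypoxic and 4.71 to 5.40 in normoxic hearts. Whether more macrophages or more of these transcripts per cell were present was not tested.

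Of 7 neutrophil and alarmin genes 6 were called higher. Hdc, the histamine-forming enzyme of mast cells and neutrophils, stood at 9.96, 11.27, 8.50, 7.14 and 8.62 in hypoxic and 4.50, 5.12, 5.59 and 5.56 in normoxic hearts (adjusted p = 0.000271). S100a8, an alarmin, averaged 5.42 ± 0.83 in hypoxic and 3.23 ± 0.78 in normoxic hearts (adjusted p = 0.0019). The count was 3 without normoxic sample 22, without hypoxic samples 4 and 5 or with centred arrays, and 4 with quantile normalization. Lymphocyte genes gave no such pattern, with none of 5 called higher and Rag2 called lower, a call lost without normoxic sample 22, 23 or 24 or hypoxic sample 4, 5, 7 or 8, with quantile normalization and without hypoxic samples 4 and 5. Centred arrays gave 2 lower. Of 14 complement, coagulation and acute phase genes 9 were higher, including the protease inhibitor gene Serpina3n (2.62, adjusted p = 0.00242), with 6 without hypoxic samples 4 and 5 and 5 without hypoxic sample 4 or with either other scaling.

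Genes of red cells and their precursors were higher in part. Of 17 measured 7 were called higher (41.2%, against 26.8%) and 1 lower (5.88%, against 9.68%), with a median of 1.39. The 7 include Isg20 and Ube2l6, which interferon also induces and whose calls were lost without normoxic sample 13, 22 or 23. Ube2l6 was also not called in either other scaling. Ahsp, the chaperone of alpha-globin, stood at 7.15, 8.13, 9.49, 9.16 and 8.10 in hypoxic and 4.62, 4.09, 4.51 and 6.31 in normoxic hearts (difference 3.52 ± 0.44, adjusted p = 0.000116). Normoxic sample 24 was the highest of its group and still below every hypoxic heart. Slc4a1, the red cell anion exchanger, averaged 9.84 ± 0.50 in hypoxic and 7.75 ± 0.97 in normoxic hearts (adjusted p = 0.00248). The count was 3 without normoxic sample 13 or 22, 4 without sample 23, 11 without sample 24, 9 (and none lower) without hypoxic samples 4 and 5 and 4 with centred arrays. The list's sample medians were 9.30 to 11.10 in hypoxic and 7.63 to 9.94 in normoxic hearts, and the share of blood in each sample was not tested.

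Mt2, a metallothionein that binds zinc and copper and is induced by glucocorticoids and metals, was among the 12 largest rises. It stood at 11.14, 11.62, 12.54, 11.36 and 12.01 in hypoxic and 5.97, 6.76, 7.73 and 6.67 in normoxic hearts, a 30.9-fold difference (adjusted p = 0.00487). The closest hypoxic and normoxic hearts were 3.41 apart for Mt2. Ftl1, the light chain of the iron store ferritin, averaged 13.03 ± 0.51 in hypoxic and 11.46 ± 0.74 in normoxic hearts (adjusted p = 0.00408). Of 15 NRF2 target and redox genes 4 were called higher, a share of 26.7% that is near the background of 26.8%, and 2 were with either other scaling.

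Egr1, an immediate early gene, was the largest fall and rested on a wide normoxic spread. It stood at 8.03, 7.81, 8.17, 7.52 and 8.04 in hypoxic and 8.77, 11.47, 12.05 and 13.70 in normoxic hearts (difference -3.58 ± 0.88, adjusted p = 0.0222). The 5 hypoxic values lay within 0.65 of each other, while normoxic values were spread over 4.93. The call was lost without normoxic sample 22 (-3.59), 23 (-3.40) or 24 (-2.85, adjusted p = 0.109) and without hypoxic samples 4 and 5 (adjusted p = 0.0573). The clock gene Per3 averaged 6.20 ± 0.33 in hypoxic and 7.77 ± 0.50 in normoxic hearts (adjusted p = 0.0268), the only call among 6 clock genes. It was lost without normoxic sample 13, 22 or 24 or hypoxic sample 4 or 7, and without hypoxic samples 4 and 5, where 2 other clock genes were called higher. Centred arrays gave 4 lower calls in that list and quantile normalization 2.

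Solute carriers of all kinds had 21 of 56 called higher (37.5%) and 1 lower (median 0.90). Beside Slc2a1, Slc16a3 and Slc7a5 they included Slc6a6, the taurine transporter (1.97, adjusted p = 0.000235), and Slc20a1, a phosphate transporter (2.12, adjusted p = 0.00312). Centred arrays gave 14 higher and 10 lower, and quantile normalization 14 and 3. Without hypoxic samples 4 and 5 there were 21 higher and none lower.

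Several large differences lay outside these groups. Csrp1, a LIM protein of smooth muscle, stood at 12.88, 12.45, 14.03, 13.45 and 13.83 in hypoxic and 10.09, 9.75, 9.24 and 9.33 in normoxic hearts (difference 3.73 ± 0.39, adjusted p = 2.27e-05). Rasl11b, a small GTPase of the RAS family, stood at 10.05, 9.26, 9.79, 9.90 and 9.78 in hypoxic and 7.41, 6.48, 7.20 and 6.66 in normoxic hearts (adjusted p = 2.48e-06). These 2 genes and Impa2, an inositol phosphatase (1.91 ± 0.22), and Rnf31, a catalytic subunit of the linear ubiquitin ligase (1.95 ± 0.22), were far apart in all 9 samples, with no overlap. Uchl1, a ubiquitin hydrolase of neurons, averaged 6.33 ± 0.62 in hypoxic and 4.54 ± 0.12 in normoxic hearts (adjusted p = 0.000597). Among the falls, Plekhh1, a pleckstrin homology domain protein, stood at 6.12, 5.92, 5.81, 5.96 and 5.51 in hypoxic and 7.58, 9.28, 8.01 and 8.50 in normoxic hearts (adjusted p = 0.00167). Mme (neprilysin), a peptidase that breaks down natriuretic peptides, averaged 4.65 ± 0.76 in hypoxic and 6.92 ± 0.82 in normoxic hearts, and Gfra2, a receptor for neurturin, averaged 5.11 ± 0.98 in hypoxic and 7.26 ± 0.24 in normoxic hearts (adjusted p = 0.0052 and 0.00315). The remaining 2 of the 12 largest falls, Akr1c14, an aldo-keto reductase (-2.15 ± 0.55), and Lrrc3b, a leucine-rich repeat protein (-2.13 ± 0.53), lost their calls without normoxic sample 22, 23 or 24 or hypoxic sample 8.

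The effect of hypoxia at P8 was set against that at P30, for which the labels give the same oxygen level and which shares no sample with it. At P30 limma called none of the 4704 probe sets, 656 had an unadjusted p under 0.05, 4 were called when adjusted over the table alone and 5 with array weights. The difference between the 2 effects was called for 243 probe sets (5.17%), or 231 named genes (9.02%), and 222 of the 243 were also called at P8. The effect was higher at P8 in 204 of them and lower in 39. Of the 687 named genes called higher at P8, 248 had a P30 difference above 0. The medians over all 687 were 1.48 at P8, where the call had selected them, and -0.12 at P30. Of the 248 called lower, 138 had a P30 difference below 0. The medians over all 248 were -1.10 at P8 and -0.05 at P30. Over all 2562 named genes the median P30 difference was -0.10, so both P30 medians lay near that background.

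Named genes with a called difference between the ages came from most of the groups above. Slc2a1 differed by 2.91 ± 0.23 at P8 and 0.14 ± 0.23 at P30 (adjusted p of the difference = 0.0003). Bnip3 differed by 2.24 ± 0.30 at P8 and -0.95 ± 0.30 at P30 (0.000869), and Acot1 by 2.46 ± 0.27 and -0.88 ± 0.27 (0.000269). For both, the P30 estimate lay on the other side of 0. Ube2c differed by 3.20 ± 0.37 and -0.96 ± 0.37 (0.000396) and Csrp1 by 3.73 ± 0.39 and -1.18 ± 0.39 (0.00022). Dcn, a fall of 1.82 at P8, differed by 0.01 ± 0.21 at P30 (0.00539), and Aqp1, a fall of 3.28 at P8, by 0.40 ± 0.45 at P30 (0.00714). Lgals3bp differed by 4.29 ± 0.46 and -1.07 ± 0.46 (0.000309), and Tgtp2 by 9.10 ± 1.50 and -1.18 ± 1.50 (0.0198). For Epas1 (0.0567), Cdkn1a (0.0679), Mt2 (0.112) and Egr1 (1) the difference between the ages was not called, which does not show that their effects were alike.

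**Figure D5:**
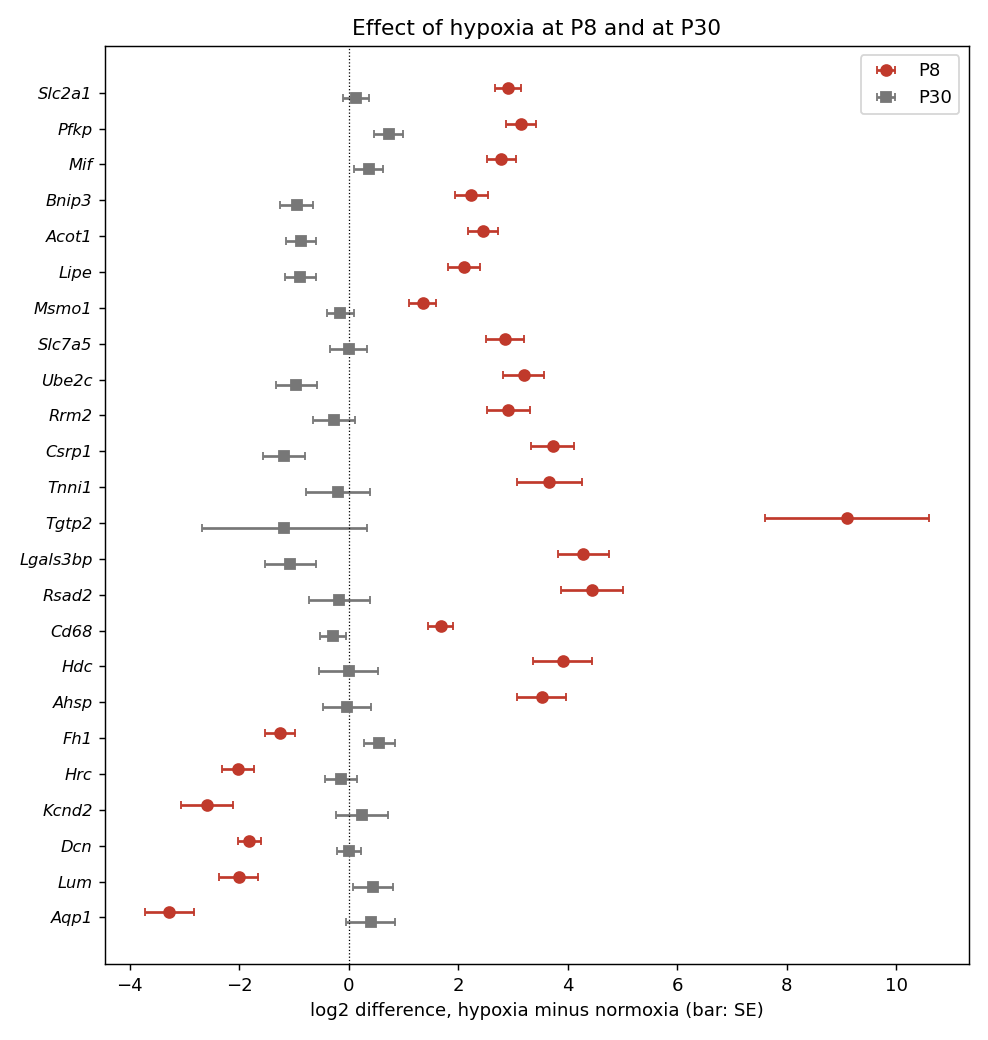
Log2 difference, hypoxia minus normoxia (horizontal axis), of 24 genes at P8 (red circles, 5 hypoxic and 4 normoxic samples) and at P30 (grey squares, 5 and 4 samples); bars are SE from the fit of all 4 groups. The P8 effects run from -3.28 (Aqp1) to 9.10 (Tgtp2), while the P30 effects lie between -1.18 and 0.73.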

How the data were processed

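Hypoxic (5) and normoxic (4) P8 hearts were measured on Clariom S mouse arrays. RNA was isolated with a kit for fibrous tissue, labelled with biotin and hybridised only above a set RNA integrity, per the labels' protocols. The authors deposited normalized log2 values made with Affymetrix Expression Console, per the submitters' processing notes. How arrays were normalized was not given in the sources used here. Base 2 of the log follows from the authors' folds, of which 99.9% equal the difference of their averages within 1%. Their P8 list gives averages, SDs, folds, p-values and q-values, per the file headers, and the authors' test is not named there. The deposited fold is a signed score that the authors computed as hypoxia over normoxia, written negative where hypoxia is lower. Group averages of theirs differ from the sample means by up to 1.97, so their folds are printed as theirs. The authors' enrichment tables were not used. Names came from probe sets with 1 symbol in those lists, with 89 symbols updated through RefSeq (GRCm38.p6), and of 4704 probe sets 2568 had 1 symbol, 105 several and 2031 none here. Where 2 probe sets shared a gene, the one with the higher mean was used.

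All 4 groups were fitted with limma 3.58.1 in R 4.3.3 (lmFit, contrasts.fit, eBayes). Benjamini-Hochberg adjustment used the 22206 tests worked out from the authors' q-values, p-values and ranks. In simulated data 200 of 22206 probe sets were changed at P8, with independent normal noise of equal SD in all 4 groups and no shift between arrays. There 63% of changes of 1.5 and 96% of changes of 3 on the log2 scale were called. Of the calls 1.24% were false (10.2% when adjusted over the table alone). Unequal spread, as for Tgtp2 (range 10.51 in hypoxic and 2.60 in normoxic hearts), was not simulated, so these rates need not hold for the real calls. Members and gene lists were chosen with earlier results of these data known. Genes named are the 12 largest rises and falls, the 3 members of a list with the smallest adjusted p and 1 against its direction, the 8 largest differences between ages and check genes, and others such as Aldoa, Ldha, B2m and Ttn were chosen after their values were seen. Some genes that this rule selects are not reported here. Array number limits the precision.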

Additional observations from a re-analysis of the deposited data

Results flagged for a closer look

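For 64 of the 131 genes named above the effect of hypoxia at P8 differed from that at P30 by the test of the difference itself (limma, adjusted p at most 0.05). Over all named genes this held for 231 of 2562 (9.02%). Most of the 131 were chosen for their P8 effects, and 8 for the largest differences between ages. The high share among them is therefore no separate result. The P8 effect minus the P30 effect, on the log2 scale, is given in brackets. Genes of glucose use, glycogen and HIF targets in this group were Slc2a1 (2.77), Pfkp (2.42), Slc16a3 (2.88), Pfkl (2.07), Aldoa (1.44), Ldha (2.07), Mif (2.42), Ndrg1 (2.55), Bnip3 (3.19), Pygl (1.75) and Pgd (1.47). Genes of fatty acids, lipids and cholesterol in this group were Acot1 (3.34), Acot2 (4.04), Cpt1b (1.59), Lipe (2.99) and Msmo1 (1.51). Genes of amino acids, the citric acid cycle and solute transport in this group were Got1 (1.64), Fh1 (-1.82), Slc7a5 (2.86), Asns (2.57), Psat1 (2.65), Mthfd2 (2.58), Wars (3.71), Slc6a6 (1.79) and Slc20a1 (2.30). Cell division and growth genes in this group were Ube2c (4.15), Ccnb1 (2.79), Cdca3 (2.75), Aurka (2.17), Rrm2 (3.18), Cdkn2d (1.91), Myc (3.43), Igf2bp2 (1.90) and Grb10 (1.76). Genes of muscle, matrix and vessels in this group were Tnni1 (3.86), Hrc (-1.89), Kcnd2 (-2.82), Fbln2 (2.98), Ecm2 (-2.16), Dcn (-1.82), Lum (-2.46), Eng (1.53), Aqp1 (-3.68), Jam2 (-2.15) and Fli1 (1.98). Interferon-induced and antigen presentation genes in this group were Tgtp2 (10.27), Gvin1 (3.79), Ifi44 (6.56), Rsad2 (4.61), Lgals3bp (5.36), Lgals9 (4.75), H2-Q4 (5.79) and Tap1 (5.85). Genes of macrophages, neutrophils, red cells and iron in this group were Laptm5 (2.37), Cd68 (1.96), Cybb (3.90), Hdc (3.91), Ahsp (3.55) and Ftl1 (1.82). The other genes in this group were Csrp1 (4.91), Plekhh1 (-3.01), Rasl11b (3.20), Impa2 (2.52) and Rnf31 (2.50). Fh1, Hrc, Kcnd2, Ecm2, Dcn, Lum, Aqp1, Jam2 and Plekhh1 are negative because they were lower in hypoxia at P8.

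In 17 of 368 groups of 4 or 5 samples, the highest or lowest value lay far from the others by Dixon's criterion, which is 4.62%, and chance alone gives about 5%. Among hypoxic hearts, sample 5 was low for Pfkl (10.82) and Ryr2 (14.41), sample 4 was low for Scn3b (5.05) and sample 6 was high for Eng (15.67). Sample 6 was also low for the median of the ribosome biogenesis genes (8.32). Among normoxic hearts, sample 13 was low for Got1 (13.32), Aplnr (9.47), Srebf2 (10.05) and the median of cell cycle inhibitors and p53 targets (7.86). The same sample was high for Tgtp2 (5.74) and the median of the mitosis genes (7.23). Normoxic sample 24 was low for Cyp51 (6.81), Irgm1 (5.63) and the median of IGF and insulin genes (7.355). Normoxic sample 22 was low for the median of antigen presentation genes (4.56). Normoxic sample 23 was high for Rnf31 (5.28) and the median of the platelet genes (5.365). What sets these samples apart was not tested.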

How the results depend on the processing

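With all samples and the deposited scale, 714 probe sets were higher and 262 lower at P8, and 243 had an effect that differed between P8 and P30. Adjusting over the table alone gave 1280, 658 and 1191, and fitting the P8 samples alone gave 329 higher and 100 lower. In that P8 fit higher calls numbered 14 for glycolysis, 8 for HIF targets, 5 for amino acid and 8 for macrophage genes. They numbered 3 for imprinted, 3 for erythroid and 17 for solute carrier genes, and 4 cardiomyocyte genes were lower. Centring gave 322, 830 and 570, and quantile normalization 339 and 541. Without dim probe sets 433 were higher and 141 lower, from fewer probe sets tested. Array weights gave 608 differences between the ages, and leaving out hypoxic samples 4 and 5, an alternative chosen with earlier results of these data known, gave 478. Leaving out 1 sample gave 432 to 743 higher, 134 to 258 lower and 166 to 376 differences between the ages, and the lowest counts came without normoxic samples 24, 24 and 22. Of the 131 genes named, 95 kept direction and side of the threshold under each alternative that gave them a value (17, or 16 where a gene was left out as dim, since 120 had a value without dim probe sets). Those that turned were Pfkfb1 (-0.35 centred, -0.42 with quantile normalization, and -0.10 to 0.22 when 1 sample was left out), Hif1a (-0.26 centred, -0.17 with quantile normalization, and -0.059 to 0.27 when 1 sample was left out, the lowest without normoxic sample 24) and Nppb (-0.047 to 1.24 when 1 sample was left out, the lowest without normoxic sample 13), none of them called. The cause was not tested. Normalization, background correction and detection calls were the authors', so no limit from signal over background could be set. No paired analysis was possible because the P8 groups share no sample number.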
